A study of Homo sapiens with 14 samples.

Results

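SELENOM and 9 further selenoprotein genes, SELENOW, SELENOF, SELENOK, SELENOS, SELENOT, SELENOP, GPX1, GPX4 and TXNRD1, were followed in prostate cancer cells treated with a CDK8/CDK19 inhibitor. The 10 genes were picked by symbol out of the 62703 genes of the count table. SELENOM was picked because its response to the inhibitor was already known from these libraries, so the treatment values of all 10 genes are given as a description, without a p-value. The comparison of untreated LNCaP with untreated 22Rv1 was not used in that choice and was tested.

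Messenger RNA was measured in 14 libraries made by BRB-seq, a method that barcodes each sample early and counts transcripts from their 3′ ends. LNCaP, 22Rv1 and PC3 cells received either SEL120-34A, a small molecule that inhibits the Mediator kinases CDK8 and CDK19, at 1.5 µM or its vehicle DMSO for 3 days. There were 3 libraries per arm in LNCaP (a line from a lymph node metastasis, sensitive to the antiandrogen enzalutamide) and in 22Rv1 (a line from a relapsed xenograft, resistant to it), and 1 per arm in PC3 (a line from a bone metastasis that grows without androgen signalling). Each group is 1 cell line in culture, the labels name no agent beyond SEL120-34A and DMSO, and p-values measure the spread between these libraries. The study's methods speak of biological replicates for experiments in general, and the labels do not say which culture each library came from.

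Selenoproteins carry selenocysteine, an amino acid in which selenium takes the place of the sulfur of cysteine. It is inserted at a UGA codon, which elsewhere stops translation, with the help of a hairpin (the SECIS element) in the 3′ untranslated region of the mRNA and a dedicated elongation factor and tRNA. Many members are redox enzymes, and several (SELENOM, SELENOF, SELENOK, SELENOS, SELENOT) sit in or on the endoplasmic reticulum (ER). GPX4, which reduces lipid peroxides, is widely studied in cancer cells as the enzyme that holds back ferroptosis.

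The codons that make these genes selenoprotein genes are given here for 7 of them, because their place in the reading frame separates the members into structural kinds. Each run is the coding strand of the canonical GENCODE transcript (GRCh38), 5′ to 3′, with the selenocysteine codon in capitals. A run that is shorter than the others ends with the stop codon.
SELENOM: acctgcgggggaTGAcagctgaaccgccta
SELENOW: tattgtggcgctTGAggctacaagtccaag
SELENOT: atttgtgtttccTGAggttataggcgggtg
SELENOF: gaagtttgtggaTGAaaattgggaaggttc
GPX4: gtggcctcccagTGAggcaagaccgaagta
SELENOK: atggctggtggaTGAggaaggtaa
TXNRD1: caggctggctgcTGAggttaa
In SELENOM the codon is number 48 of 146, counted from the start codon and including the stop, and lies at chr22:31105951-31105953 on the minus strand. SELENOM, SELENOW (codon 13) and SELENOT (codon 49) have a cysteine codon 3 codons before it, the arrangement of a thioredoxin-like redox motif. SELENOF has the cysteine codon 2 codons before, and GPX4 (codon 73) has none nearby. In SELENOK, SELENOS and TXNRD1 the codon is among the last of the frame, with 2, 1 and 1 codons between it and the stop codon. In TXNRD1, thioredoxin reductase, it directly follows a cysteine codon. SELENOP, a plasma protein that carries selenium between tissues, has 10 such codons. The counts come from 3′ ends and do not tell whether the codon was read as selenocysteine.

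Library totals ranged from 246063 to 909176 counts. Levels are given as CPM (counts scaled to the library total with TMM factors). A gene without counts may still have had 3 counts' worth of mRNA. Over the plain library total, without TMM factors, that is 12.2 CPM where the total was smallest and 3.3 CPM where it was largest. All treated 22Rv1 libraries were shallower (246063 to 368778) than their controls (476455 to 777207). The share of mitochondrial counts was 13.9 to 17.3% in LNCaP DMSO and 16.5 to 23.3% in LNCaP SEL120-34A, and 7.6 to 9.82% against 9.52 to 13.1% in 22Rv1. The line labels were checked against marker genes. A list of 6 luminal prostate genes (KLK3, KLK2, HOXB13, FOLH1, SLC45A3, TMPRSS2) summed to 1838 to 3040 CPM in LNCaP, 334 to 466 in 22Rv1 and 87.7 to 114 in PC3, while 5 mesenchymal genes (VIM, CAV1, ANXA1, AXL, CD44) summed to 23.6 to 59.6, 51 to 82.7 and 2394 to 2565 CPM. Of 4 genes of leukocytes, fibroblasts and endothelium, PTPRC and COL1A2 had 0 counts in all libraries, PECAM1 had at most 4, and COL1A1 had 85 and 49 in the PC3 libraries and at most 13 in any other.

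SELENOM encodes a small ER protein with a thioredoxin-like fold. In LNCaP DMSO it had 105.6, 110 and 107.7 CPM (75, 42 and 77 counts), and in LNCaP SEL120-34A 253.4, 200.6 and 188 CPM (65, 74 and 89 counts). In 22Rv1 DMSO it had 616.5, 595.2 and 619 CPM (314, 318 and 519 counts), and in 22Rv1 SEL120-34A 1447, 1833 and 1252 CPM (525, 427 and 439 counts). In both lines every treated library lay above every control library. The means were 107.8 ± 2.16 and 214 ± 34.7 CPM in LNCaP (SD, n = 3 each), a log2 fold change of 1.00 ± 0.18 (SE). In 22Rv1 they were 610.2 ± 13.1 and 1511 ± 296 CPM, a log2 fold change of 1.31 ± 0.13. The fitted effect in LNCaP minus that in 22Rv1 was -0.32 ± 0.22 on the log2 scale.

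**Figure D1:**
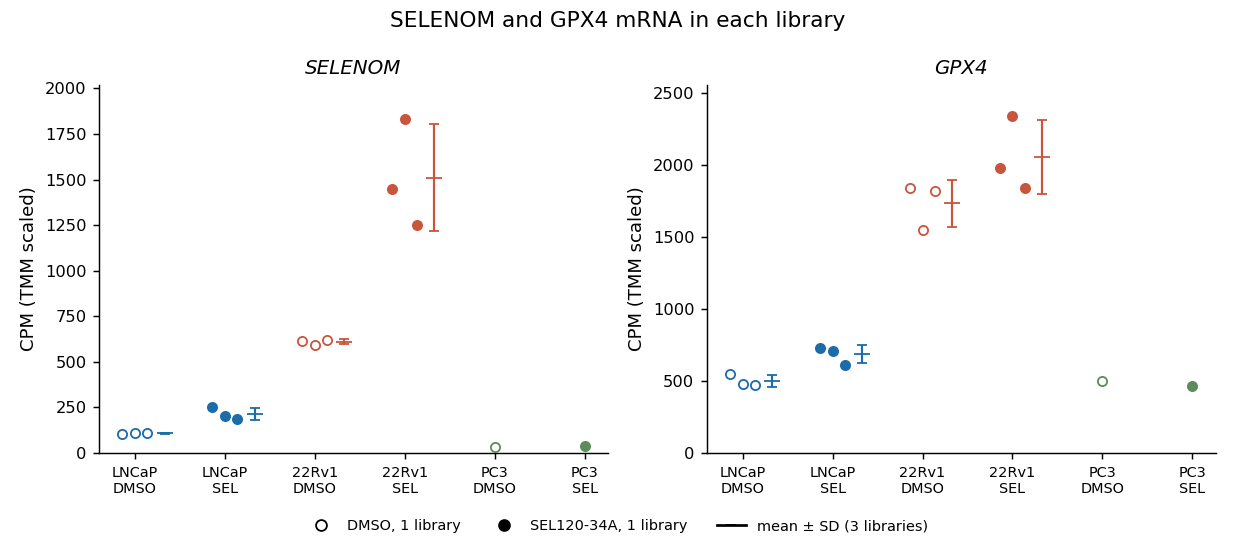
SELENOM and GPX4 mRNA (CPM after TMM scaling, linear axes from 0) in each library of the 6 groups, with open circles for DMSO, filled circles for SEL120-34A and bars for the mean ± SD of 3 libraries. For SELENOM the treated libraries of LNCaP (188 to 253.4) and 22Rv1 (1252 to 1833) lie above their controls, and the PC3 libraries are at 33.8 and 36.8.

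Placed among the 7086 genes tested, the log2 fold change of SELENOM ranked 179 from the highest in LNCaP and 84 in 22Rv1. Of 226 genes with a higher mean level over the 12 libraries, 1 had a larger log2 fold change in each line. Among genes with a lower mean level, 177 had a larger one in LNCaP and 82 in 22Rv1. SELENOM was picked for this response, so its ranks and these counts follow from the choice and are no result. The log2 fold change of SELENOM stayed between 0.87 and 1.10 in LNCaP and between 1.15 and 1.44 in 22Rv1 over 22 alternative ways of processing the counts. With all libraries thinned to the smallest total, it was 0.96 in LNCaP and 1.31 in 22Rv1. The part of the higher mitochondrial share of the treated libraries in these values was not tested.

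**Figure D2:**
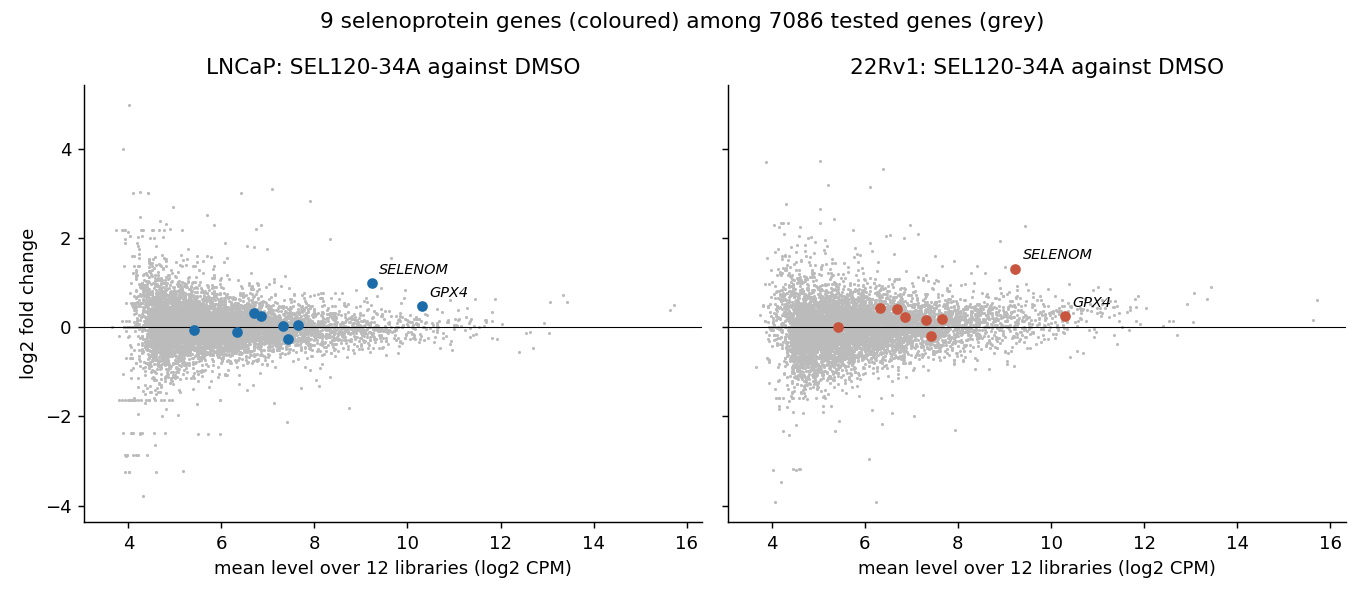
Log2 fold change of SEL120-34A against DMSO (vertical axis) against the mean level over the 12 LNCaP and 22Rv1 libraries (horizontal axis, log2 CPM) for 7086 tested genes in grey, with 9 selenoprotein genes coloured. SELENOM stands at 1.00 in LNCaP and 1.31 in 22Rv1, while the other 8 lie between -0.27 and 0.47.

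In PC3, SELENOM was lowest: 31 counts with DMSO (33.8 CPM, exact 95% Clopper-Pearson interval 22.9 to 47.9) and 21 counts with SEL120-34A (36.8 CPM, 22.8 to 56.3). Their log2 ratio was 0.13, with a counting interval from -0.75 to 0.97, whose upper end is just below the value of LNCaP. With 1 library per arm there is no test in PC3, and intervals cover counting error only. Ordered by level, the groups ran from the PC3 libraries, whose intervals overlap, through LNCaP DMSO, LNCaP SEL120-34A and 22Rv1 DMSO to 22Rv1 SEL120-34A. No library of one of these 4 groups overlapped the next.

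GPX4, the lipid peroxide reductase, was the other member with separated groups in both lines. It had 550.8, 481.7 and 475.4 CPM in LNCaP DMSO and 733, 710.2 and 614.6 CPM in LNCaP SEL120-34A, a log2 fold change of 0.47 ± 0.13. In 22Rv1 DMSO it had 1840, 1548 and 1824 CPM and in 22Rv1 SEL120-34A 1984, 2343 and 1845 CPM, a log2 fold change of 0.25 ± 0.12. The gap in 22Rv1 was narrow, since the lowest treated library exceeded the highest control by less than the spread within either arm. In PC3 it was 503 CPM (458.2 to 551) with DMSO and 468.2 (413.7 to 527.8) with SEL120-34A, a log2 ratio of -0.10 (-0.33 to 0.12). GPX1, the cytosolic glutathione peroxidase, had 0 to 6 counts in every library and was too low to be tested. Its processed pseudogene GPX1P1, named here after its values were seen, held 6 to 22 counts per library, 160 in all against 45 for GPX1. Reads of these near-identical copies may have been split by the counting, so the level of GPX1 is uncertain. GPX1 also shares exons with a readthrough gene on the same strand, which had 0 counts in all libraries.

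The other ER members were less separated by treatment. SELENOF, which binds the glycoprotein folding sensor UGGT, had 90.15, 136.1 and 100.7 CPM in LNCaP DMSO and 109.2, 130.1 and 124.6 with SEL120-34A. In 22Rv1 it had 86.38, 97.33 and 109.7 CPM against 107.5, 154.5 and 91.27. The arms overlapped in both lines, with log2 fold changes of 0.24 ± 0.20 and 0.22 ± 0.21. SELENOK, a membrane protein that works with the palmitoyltransferase ZDHHC6, had 49.7 to 61.5 CPM in LNCaP DMSO and 29.8 to 63.4 with SEL120-34A (log2 -0.10 ± 0.27). In 22Rv1 its 3 control libraries were close together at 84.4 to 87.1 CPM, and its treated libraries spread from 82.7 to 143.3 (log2 0.42 ± 0.22). SELENOS, part of the complex that moves misfolded proteins out of the ER, was at 131 to 166.4 and 135.5 to 166.8 CPM in LNCaP and 138.5 to 159 and 128.4 to 231.8 CPM in 22Rv1 (log2 0.04 ± 0.18 and 0.17 ± 0.18). SELENOT, an ER thioredoxin-fold protein, overlapped in LNCaP (log2 0.05 ± 0.17). In 22Rv1 its treated libraries, at 206.7, 210.3 and 205.4 CPM, all lay above the controls at 170.8, 183.4 and 196.8, but by a log2 fold change of only 0.18 ± 0.17. With library totals in place of TMM this value was 0.03.

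Outside the ER, SELENOW, a small cytosolic redox protein, had 114.1, 99.49 and 78.3 CPM in LNCaP DMSO and 152.1, 108.4 and 105.6 with SEL120-34A. In 22Rv1 it had 74.6, 65.51 and 90.64 CPM against 102, 145.9 and 71.31. The arms overlapped in both lines (log2 0.32 ± 0.22 and 0.40 ± 0.23). TXNRD1, the cytosolic reductase of thioredoxin, was at 162.3 to 202.8 and 103 to 179.5 CPM in LNCaP and at 141.4 to 211.5 and 137.8 to 156.9 CPM in 22Rv1. Its log2 fold changes were -0.27 ± 0.18 and -0.19 ± 0.19, and the arms overlapped in both lines. SELENOP, the selenium carrier, was at 26.6 to 55 and 25.3 to 50.7 CPM in LNCaP and at 28.1 to 40.6 and 24.8 to 42.9 CPM in 22Rv1, with log2 fold changes of -0.07 ± 0.32 and 0.00 ± 0.33. Its exons overlap those of CCDC152 on the opposite strand, as do those of SELENOT with SERP1, and whether the counting used strand is not given in the sources used here, so reads of these pairs cannot be told apart.

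**Figure D3:**
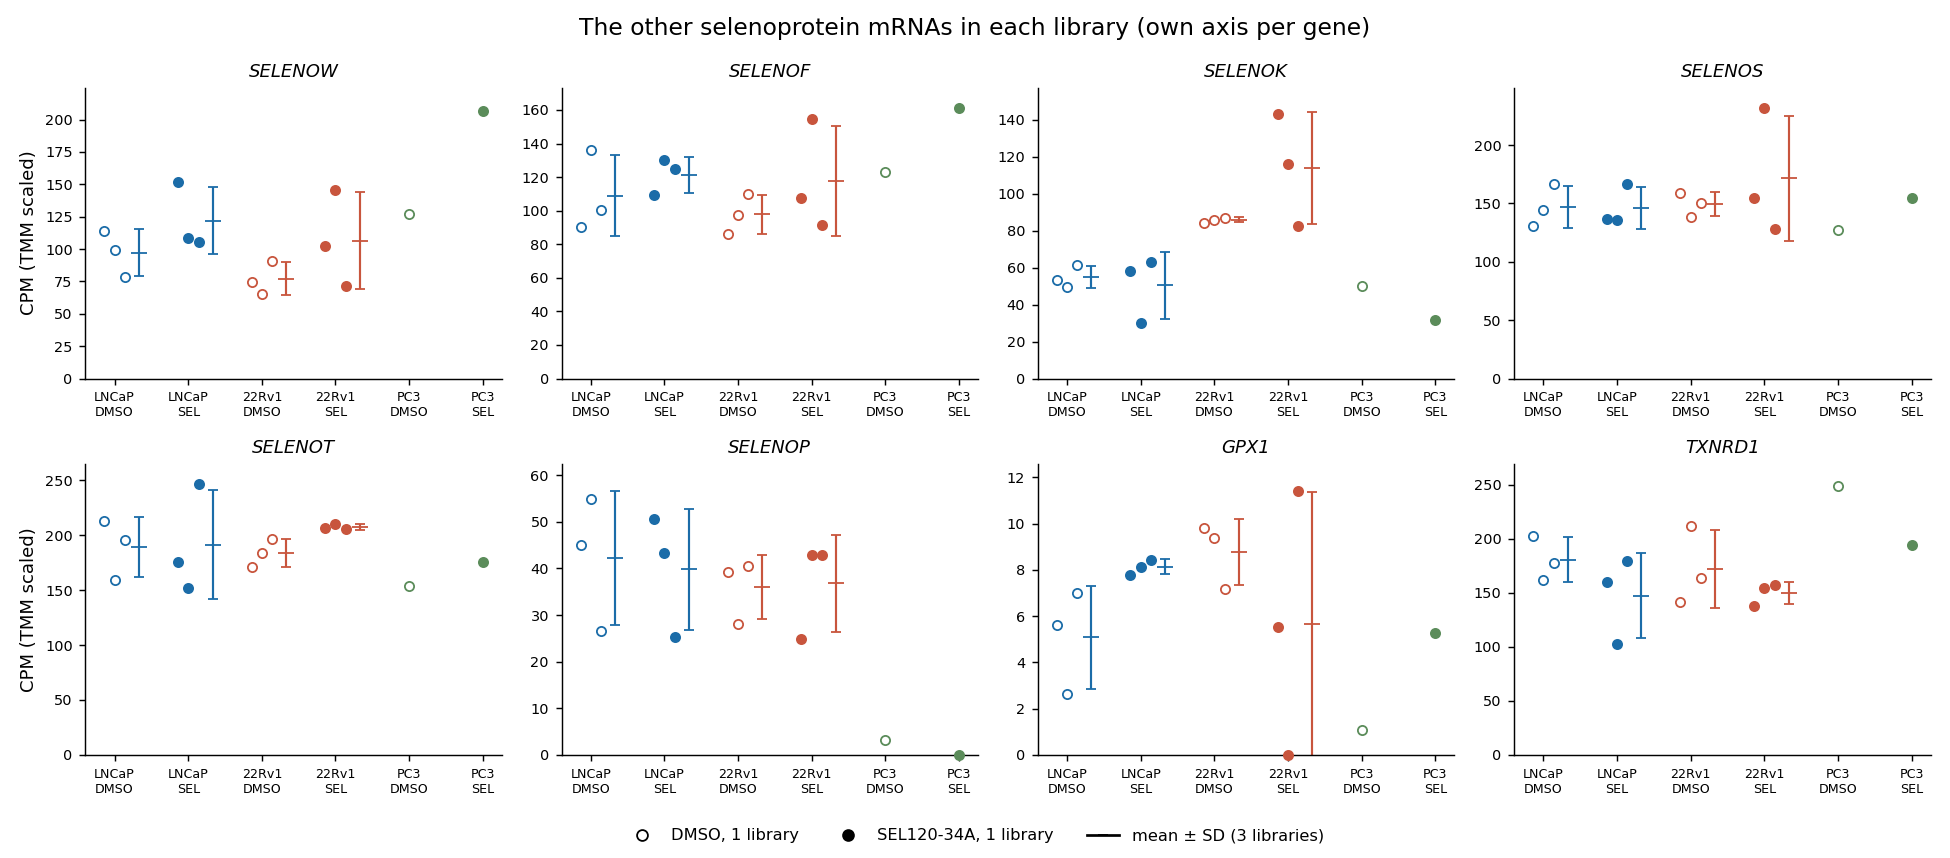
CPM (after TMM scaling, each gene on its own linear axis from 0) of the other 8 selenoprotein genes in each library, with open circles for DMSO, filled circles for SEL120-34A and bars for the mean ± SD of 3 libraries. Treated and control libraries overlap in both lines for all but SELENOT in 22Rv1 and GPX1 in LNCaP, and GPX1 has at most 6 counts in any library.

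In PC3 the responses of these members rested on 1 library per arm. SELENOW had 117 counts with DMSO and 118 with SEL120-34A, a log2 ratio of 0.70 (counting interval 0.32 to 1.08). TXNRD1 had 229 and 111 counts, a log2 ratio of -0.36 (-0.70 to -0.02). The intervals of both exclude 0, but they cover counting error only, and neither gene differed by 2-fold. Among 10023 genes with more than 3 counts in both libraries, the log2 ratio had a median of 0.03 and an SD of 0.54. Of these genes 7.59% differed by 2-fold or more. The intervals of SELENOF (0.39, -0.02 to 0.80), SELENOK (-0.67, -1.54 to 0.15), SELENOS (0.28, -0.14 to 0.69) and SELENOT (0.19, -0.19 to 0.57) included 0. SELENOP had 3 and 0 counts in PC3, so that its level was at most 9.55 CPM with DMSO and 6.47 CPM with SEL120-34A (exact upper limits), whereas all 12 libraries of the other lines had at least 9 counts.

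**Figure D4:**
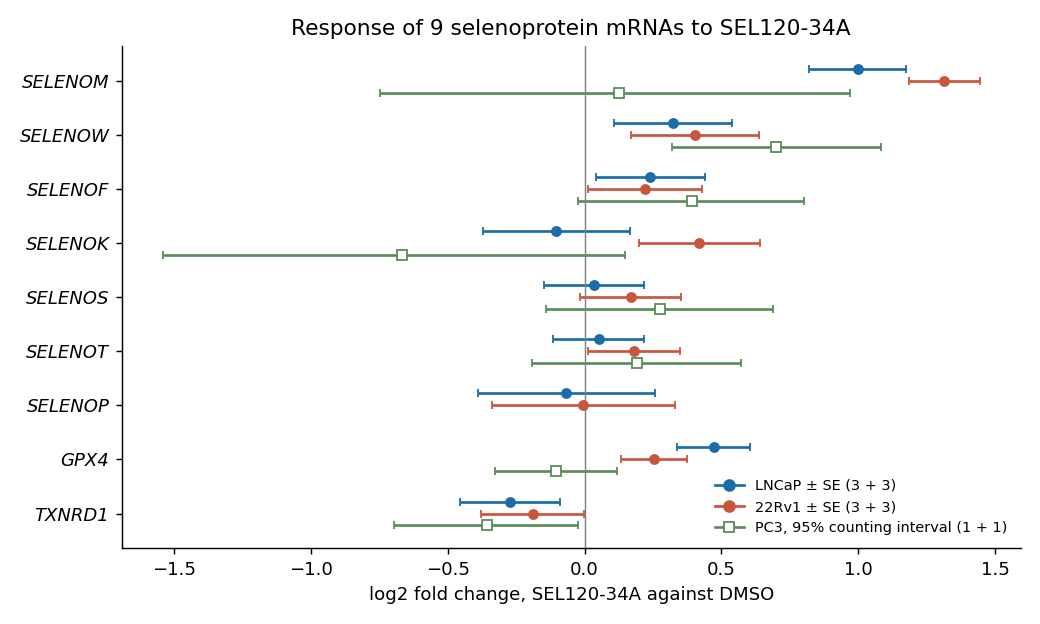
Log2 fold change of SEL120-34A against DMSO for 9 selenoprotein genes, with the standard error of the model for LNCaP and 22Rv1 (circles, 3 + 3 libraries) and the 95% counting interval for PC3 (squares, 1 + 1 libraries). SELENOM, which was picked for this response, is at 1.00 and 1.31, and all other LNCaP and 22Rv1 values shown lie between -0.27 and 0.47. SELENOP has no PC3 value because of its 3 and 0 counts.

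Counted over the members, 9 of 10 passed the filter on low counts. By edgeR's quasi-likelihood test with Benjamini-Hochberg adjustment over all genes, 2 of the 9 (SELENOM and GPX4) were past the threshold of 0.05 in LNCaP and 1 (SELENOM) in 22Rv1, where 2.77% and 5.7% of all tested genes were (1.99% and 4.15% as higher with SEL120-34A). These counts follow from the choice of the members and are no result. The median log2 fold change of the 9 was 0.05 in LNCaP and 0.22 in 22Rv1, beside 0.00 over all genes in both. The arms were fully separated for 2 of the 9 in LNCaP and for 3 in 22Rv1, as they were for 19.4% and 23% of all genes. None of the 9 passed the threshold for a difference between the effects in the lines, a contrast that 0.734% of genes passed. For the members this, too, is a description and no result, and it does not show that the lines respond alike.

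Between the untreated lines, which the choice of the genes did not use, 3 of the 9 tested members differed and all 3 were lower in LNCaP. Over all genes 49% differed, so the share of members that differed in either direction was no larger than the background. Lower in LNCaP were 25% of all genes and 3 of the 9 members, a difference in share that was not tested. SELENOM was 5.65-fold lower in LNCaP DMSO than in 22Rv1 DMSO (107.8 ± 2.16 against 610.2 ± 13.1 CPM), a log2 fold change of -2.50 ± 0.15 with an adjusted p of 4.63e-17. GPX4 was 3.44-fold lower (502.6 ± 41.8 against 1737 ± 164 CPM), a log2 fold change of -1.78 ± 0.13 with an adjusted p of 3.75e-15. SELENOK was 1.54-fold lower (54.9 ± 6.01 against 85.9 ± 1.34 CPM), with a log2 fold change of -0.62 ± 0.22 and an adjusted p of 0.0189. The libraries of the lines did not overlap for any of the 3, as for 56.4% of all genes. The SELENOK call was lost without LNCaP DMSO replicate 1 or replicate 2 and with DESeq2 or limma-trend in place of edgeR, with adjusted p up to 0.0899.

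The other 6 tested members did not differ between the untreated lines past the threshold. Their log2 differences ran from -0.01 ± 0.17 for SELENOS to 0.31 ± 0.21 for SELENOW, with adjusted p of 0.957 and 0.225. The SELENOW difference was past the threshold with the libraries thinned to the smallest total, where its log2 value was 0.68 and its adjusted p 0.0417. Values in between were 0.06 ± 0.16 for SELENOT, 0.09 ± 0.17 for TXNRD1, 0.10 ± 0.19 for SELENOF and 0.15 ± 0.29 for SELENOP. Leaving out SELENOM, GPX4 and SELENOK, the members' fitted levels in LNCaP and 22Rv1 thus lay within 1.24-fold of each other, with standard errors that allow more.

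By the size of the root-mean-square difference of centred log2 CPM over the 12 LNCaP and 22Rv1 libraries, the genes whose pattern was most like that of SELENOM among 3885 genes were ELF3 (0.28), SERPINE2 (0.37), CA12 (0.38), RAMP1 (0.40) and ITGB5 (0.42). The median over these genes was 1.48. ELF3, an epithelial transcription factor, had mean levels of 28.7 and 39.5 CPM in LNCaP and 154.4 and 303.2 CPM in 22Rv1, with DMSO and SEL120-34A in this order. SERPINE2, a protease inhibitor, had 10.6 and 19.3 CPM in LNCaP and 59.3 and 135.5 CPM in 22Rv1. The likeness came mostly from the difference between the lines, which was -2.06 to -2.98 on the log2 scale for the 5 genes, whereas their treatment effects ran from -0.09 to 1.15 in LNCaP and from 0.40 to 1.17 in 22Rv1.

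Of 15 further selenoprotein genes, 7 passed the filter on low counts. None of the 7 was past the threshold in LNCaP (1 had an unadjusted p under 0.05) and 1, SELENOO, rose in 22Rv1. Over all tested genes 2.77% were past the threshold in LNCaP, and 4.15% were past it as higher in 22Rv1. An unadjusted p under 0.05 was found for 956 of all 7086 genes in LNCaP. SELENOO, a mitochondrial protein that attaches AMP to other proteins, had 47.12, 61.77 and 58.44 CPM with DMSO and 90.95, 124.5 and 85.57 with SEL120-34A, with no overlap. Its log2 fold change was 0.82 ± 0.24 with an adjusted p of 0.0361. That call was lost in 8 of 20 alternatives (adjusted p up to 0.227), namely without 22Rv1 DMSO replicate 1 or 3 or 22Rv1 SEL120-34A replicate 1 or 2, with library totals, without the filter on low counts, with thinned libraries and with limma-trend. In LNCaP the value was 0.64 ± 0.33 with an adjusted p of 0.399. SELENOH, a nucleolar redox protein, and TXNRD2, the mitochondrial thioredoxin reductase, were not past the threshold in either line (log2 0.14 ± 0.29 and 0.28 ± 0.19 in LNCaP, 0.35 ± 0.28 and 0.28 ± 0.21 in 22Rv1). Medians over the 7 were 0.14 in LNCaP and 0.28 in 22Rv1. DIO3, the deiodinase that inactivates thyroid hormone, was below the filter and is named because of its values: it had 0 counts in all LNCaP DMSO libraries and 4, 9 and 6 counts in LNCaP SEL120-34A, at least 10.4-fold higher when the 3 controls are set at a floor of 3 counts in all. In 22Rv1 it had 0 counts in all 6 libraries. The difference has no fitted test.

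Between the untreated lines, 3 of these 7 genes differed, all lower in LNCaP, where 49% of all tested genes differed and 25% were lower. SELENON, an ER protein of calcium handling, was at 37.9 ± 4.9 against 113 ± 23.8 CPM (log2 -1.58 ± 0.22, adjusted p 1.16e-07). SELENOO was at 22.6 ± 8.74 against 55.8 ± 7.68 CPM (log2 -1.24 ± 0.28, adjusted p 2.97e-04). SEPHS2, the selenophosphate synthetase that is itself a selenoprotein, was at 39.2 ± 7.37 against 72.9 ± 3.79 CPM (log2 -0.91 ± 0.24, adjusted p 0.00146). Together with SELENOM, GPX4 and SELENOK, 6 of the 16 selenoprotein genes tested were lower in LNCaP DMSO and 0 were higher, where 25% of all genes were lower and 24% higher.

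Of 11 genes of selenocysteine synthesis, insertion and selenium supply, 8 were tested and 0 were called by edgeR for treatment in either line. Over all tested genes 2.77% were called in LNCaP and 5.7% in 22Rv1, shares at which 0 of 8 says little. In each line 1 of the 8 had an unadjusted p under 0.05, beside 956 of all 7086 genes in LNCaP and 1351 in 22Rv1. In LNCaP it was SEPHS2. In 22Rv1 it was SEPHS1, named because of its values, with a log2 fold change of -0.75 ± 0.25 and an adjusted p of 0.0603. In LNCaP SEPHS1 was at -0.26 ± 0.24. In LNCaP and 22Rv1 the log2 fold changes were 0.00 ± 0.34 and 0.13 ± 0.32 for EEFSEC, the elongation factor for selenocysteine, and 0.09 ± 0.44 and -0.09 ± 0.42 for SECISBP2, which binds the SECIS element. SEPHS2 was at 0.68 ± 0.27 and 0.28 ± 0.23, with adjusted p of 0.21 and 0.56. SEPSECS, the last enzyme of selenocysteine synthesis, had at most 9 counts in the libraries of these lines and was not tested. Between the untreated lines SEPHS2 was lower, as given above, and TRNAU1AP, a partner of the selenocysteine tRNA, was higher in LNCaP (86.5 ± 7.34 against 57.2 ± 11 CPM, log2 0.62 ± 0.22, adjusted p 0.0171), a call lost in 7 of 20 alternatives, among them those without LNCaP DMSO replicate 1 and without 22Rv1 DMSO replicate 2 or 3.

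Among 16 genes that work beside the ER members in disulfide formation and disposal of misfolded proteins, 12 were tested. Over all tested genes 2.77% were past the threshold in LNCaP and 5.7% in 22Rv1, and 956 of 7086 had an unadjusted p under 0.05 in LNCaP. None of the 12 was past the threshold in LNCaP, with 3 of them at an unadjusted p under 0.05, and 1 fell in 22Rv1. That gene was PDIA4, an ER disulfide isomerase, at 853.1 ± 45 CPM with DMSO and 575.9 ± 63.7 with SEL120-34A (log2 -0.55 ± 0.12, adjusted p 0.00393). In LNCaP PDIA4 was at 310.9 ± 28.1 and 229.2 ± 6.06 CPM without overlap, with a log2 fold change of -0.42 ± 0.14 and an adjusted p of 0.126, which library totals in place of TMM brought past the threshold (0.0418). UGGT1, the partner of SELENOF, had at most 14 counts in the libraries of these lines and was not tested. The median of the 12 was -0.11 in both lines. Between the untreated lines 5 of the 12 differed, where 49% of all tested genes did. ZDHHC6 (log2 1.46 ± 0.26, adjusted p 1.39e-05), PRDX4 (0.58 ± 0.13, adjusted p 2.75e-04) and 1 other were higher in LNCaP, and PDIA4 (-1.44 ± 0.12, adjusted p 7.00e-13) and 1 other were lower. ZDHHC6 was thus higher in LNCaP while SELENOK, with which it works, was lower.

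Of 24 genes of the thioredoxin and glutathione systems, 17 were tested, and 1 rose in each line. Over all tested genes 1.99% rose past the threshold in LNCaP and 4.15% in 22Rv1. An unadjusted p under 0.05 was found for 6 of the 17 in LNCaP and 4 in 22Rv1, beside 956 and 1351 of all 7086 genes. In LNCaP the gene that rose was GCLC, the catalytic subunit of the first enzyme of glutathione synthesis. It had 16.9, 13.09 and 22.37 CPM with DMSO and 58.48, 65.05 and 57.02 with SEL120-34A (log2 1.74 ± 0.32, adjusted p 5.33e-04). The counts behind these values were 5 to 27 per library, and the call was lost only with all libraries thinned to the smallest total (adjusted p 0.171). In 22Rv1 GCLC was at 34.5 ± 7.44 and 34 ± 15.4 CPM, a log2 fold change of -0.08 ± 0.34 with an adjusted p of 0.93. The gene that rose in 22Rv1 was TXN, thioredoxin, a substrate of TXNRD1, with 353.4, 346.3 and 354.2 CPM against 540.2, 630.9 and 533.4 (log2 0.70 ± 0.13, adjusted p 5.94e-04). In LNCaP TXN was at 0.28 ± 0.13 with an adjusted p of 0.321. GSR, glutathione reductase, was at 0.04 ± 0.17 in LNCaP and -0.07 ± 0.18 in 22Rv1. The median of the 17 was 0.21 in LNCaP and 0.02 in 22Rv1.

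**Figure D5:**
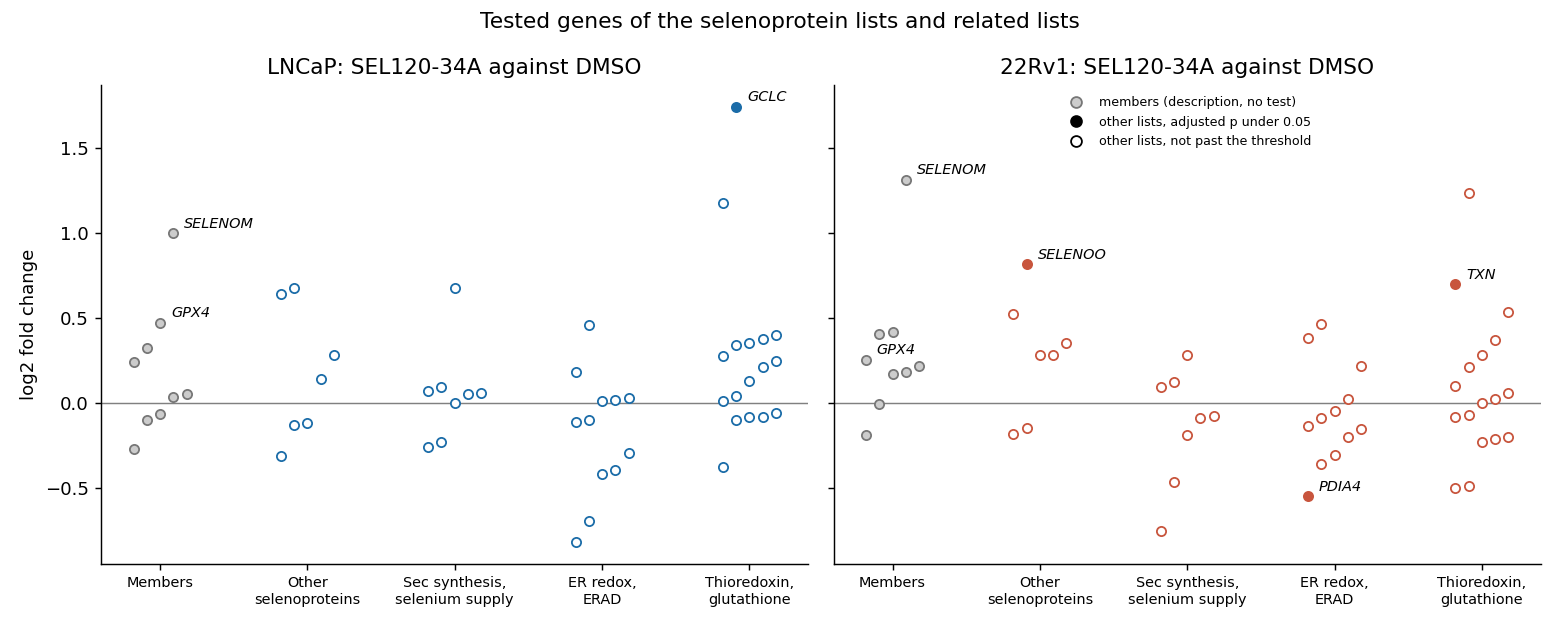
Log2 fold change of SEL120-34A against DMSO in LNCaP (left) and 22Rv1 (right) for the tested genes of the 5 lists, each point being 1 gene. The 9 members are grey because they are a description, and filled coloured points are genes of the other lists past an adjusted p of 0.05 by edgeR: GCLC in LNCaP, and SELENOO, TXN and PDIA4 in 22Rv1.

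Between the untreated lines 9 of these 17 genes differed, 6 being higher and 3 lower in LNCaP, where 49% of all tested genes differed. GPX8, an ER peroxidase that carries cysteine in place of selenocysteine, had 71 counts over the 3 LNCaP DMSO libraries and 0 over those of 22Rv1, at least 24.6-fold higher with the 22Rv1 group set at a floor of 3 counts in all. It also had 0 counts in the treated 22Rv1 libraries and 61 and 39 counts in PC3. TXNIP, which binds and inhibits thioredoxin, was lower in LNCaP (log2 -1.08 ± 0.33, adjusted p 0.00612) although its libraries overlapped, and the call was lost in 3 of 20 alternatives: without LNCaP DMSO replicate 3, where the log2 value was -0.57, and with DESeq2 or limma-trend in place of edgeR (adjusted p up to 0.205). GCLC was lower in LNCaP DMSO (-0.90 ± 0.32, adjusted p 0.0195), lost in 5 of 20 alternatives, namely without LNCaP DMSO replicate 1 or 2 or 22Rv1 DMSO replicate 2, with thinned libraries and with DESeq2. TXN was higher in LNCaP (0.46 ± 0.13, adjusted p 0.00296), lost with library totals in place of TMM, and GSR was higher (0.37 ± 0.16, adjusted p 0.0486), lost in 14 of 21 alternatives, among them those without replicate 1 or 3 of either DMSO group, LNCaP SEL120-34A replicate 1 or 2, or 22Rv1 SEL120-34A replicate 1.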

How the data were processed

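The authors aligned and counted the 3′ reads with STARsolo on GRCh38.p13 with GENCODE release 43, as the labels and the methods state, and deposited raw counts for 62703 genes in 14 libraries. The authors also deposited log2 CPM values for 9638 genes, which edgeR's filter over 6 groups, TMM factors and a prior count of 2 reproduced here to within 5e-14. Whether molecular identifiers were collapsed is not given in the sources used here, so intervals and floors cover counting error only.

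Groups and replicate numbers came from the labels. The count model was the quasi-likelihood F-test of edgeR 4.0.16, run under R 4.3.3 (TMM, filterByExpr, 7086 genes, 12 LNCaP and 22Rv1 libraries in 4 groups, 8 residual degrees of freedom, common biological coefficient of variation 11.1%). The Benjamini-Hochberg adjustment ran over all 7086 genes, with a threshold of 0.05. Levels are CPM with TMM factors over all 14 libraries. Replicates of a group differed by more than counting error (chi-square per degree of freedom 1.29 to 2.44), so none was counted as a duplicate. PC3 had 1 library per arm and was described with exact Clopper-Pearson 95% intervals.

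The members and the gene lists were chosen with earlier results of these data known. Named were the members, a fixed set of 9 pathway genes, list genes past the threshold under treatment (up to 5 per list), the 3 with the largest differences past the threshold between untreated lines, and the 5 genes most like SELENOM among those with a mean of at least 20 counts. SEPHS1, like DIO3 and GPX1P1, was named after its values were seen. Positions, overlaps and sequences came from GENCODE release 44 on GRCh38. Counts of overlapping genes and pseudogenes were looked at for the members only. Among the named list genes, GCLC, ZDHHC6, SELENON and SELENOH share exons with another gene on their own strand. Overlaps of SEPHS1 were not looked up. The exons of TRNAU1AP overlap those of SNHG12 on the opposite strand, and TXN has 7 pseudogenes by name. The part of these in the counts was not tested. Each result was recomputed with a block for the replicate number, with size factors of DESeq2 or plain library totals for scaling, without the filter or with a minimum of 10 counts per library, on 1 line only, with the PC3 libraries included, on counts thinned to the lowest total, and with each library left out in turn. DESeq2 1.42.0 (Wald test) and limma-trend (limma 3.58.1, deposited log2 values) replaced edgeR. The model was tested on simulated counts.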

Additional observations from a re-analysis of the deposited data

Results flagged for a closer look

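GCLC, the catalytic subunit of the first enzyme of glutathione synthesis, was the only named gene whose response to SEL120-34A differed between the lines by the interaction contrast of edgeR. Its effect in LNCaP minus that in 22Rv1 was 1.82 ± 0.46 on the log2 scale (adjusted p 0.0450 over 7086 genes), the effects themselves being 1.74 in LNCaP and -0.08 in 22Rv1. It was higher in all 3 treated LNCaP libraries than in all 3 controls, and the arms overlapped in 22Rv1. The call was lost in 12 of 19 alternatives, with adjusted p up to 0.436 (without LNCaP DMSO or SEL120-34A replicate 1 or 2, any 22Rv1 DMSO replicate, 22Rv1 SEL120-34A replicate 1 or 3 or the filter on low counts, with thinned libraries and with limma-trend), and the counts behind it were 5 to 27 per library. GCLC shares exons with another gene on its own strand and with GCLC-AS1 on the opposite strand, whose part in its counts was not tested. Groups of 3 libraries are too small to be searched for single outlying libraries.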

How the results depend on the processing

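Of 2397 alternative values, 59 were no longer past the threshold, 7 passed it newly, 29 (values with no test, and counts) moved and 0 values past the threshold changed sign. The other 2302 kept their side of the threshold or stayed within the replicate spread, but 113 of them, none past the threshold, had the other sign. SELENOM and GPX4 were past the threshold between the untreated lines in every alternative. The treatment values of the members are a description, so calls of GPX4 in LNCaP show its dependence on the processing and are no support. GPX4 in LNCaP was past the threshold in 12 of 22. It lost the call when DMSO replicate 2 or 3 or SEL120-34A replicate 1 or 2 of LNCaP, or SEL120-34A replicate 1 of 22Rv1, was left out. The call was also lost with library totals, no filter, PC3 added, thinning or limma-trend. Numbers of genes called depended more on the setting. For LNCaP, 22Rv1, the untreated lines and the difference in effect, edgeR called 196, 404, 3473 and 52. With at least 10 counts in every library, where fewer genes are tested, it called 122, 1503 and 29 in LNCaP, the lines and the difference. Thinning gave 92, 2039 and 25 there. DESeq2's Wald test called 101 in LNCaP and 255 in 22Rv1, limma-trend 41 in LNCaP, 201 in 22Rv1 and 5 for the difference, and no filter 260 in 22Rv1. The cause was not tested. Leaving out each library gave 87 to 239 in LNCaP, 158 to 446 in 22Rv1, 3038 to 3723 between the lines and 24 to 57 for the difference.

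Library totals in place of TMM shifted the median gene to -0.08, -0.14 and -0.24 on the log2 scale, and calls split into 99 higher and 90 lower in LNCaP (141 and 55 with TMM), 144 and 231 in 22Rv1 (294 and 110), and 1211 and 2362 between the lines (1701 and 1772). SELENOM stayed at 0.91 and 1.15, and SELENOT in LNCaP turned from 0.05 to -0.04, within its error. The correlations of same-numbered libraries of the 2 arms were -0.05 to 0.11 in LNCaP and -0.01 to 0.03 in 22Rv1. Whether the numbers pair the libraries cannot be told from these values, because differently numbered libraries were not compared. With the replicate number as a block, 240, 450, 3507 and 68 genes were called, beside 196, 404, 3473 and 52 without it. The members called were the same number in each comparison. Members with few counts (GPX1, and SELENOP in PC3) are limited by depth.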
